A study of Astragalus chrysochlorus with 2 samples.

Results

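Transcription factors are proteins that bind DNA near a gene and raise or lower its transcription. The 9 unigenes described here carry names of 6 plant families: bZIP, bHLH, WRKY, trihelix, TCP and B3. A unigene is a transcript sequence assembled from the reads. The 9 were chosen by their names and by their difference between the libraries, since the names come from a list of unigenes that differed at least 4-fold, and the table holds 82566 unigenes in all. All values of the difference between the libraries are therefore a description of these 9 unigenes, and their direction and size were part of the choice.

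The libraries came from callus of Astragalus chrysochlorus, an undifferentiated tissue culture of a selenium-accumulating legume that had been kept in culture for long. The Se-treated callus, 21 days old at the start, was exposed to sodium selenate at 5 mg/L over 3 weeks. The control callus grew without selenate, and both media were MS medium with 0.5 mg/L of the synthetic auxin 2,4-D. The sample labels give no age at the start and no culture time for the control callus. There was 1 library per condition, with 16.70 M mapped fragments in the Se-treated and 16.73 M in the control library (M, the prefix mega), so no difference has a replicate check. Cultures were grown in triplicate, and whether their RNA was pooled is not given in the sources used here. No marker genes of callus were available for a check of the tissue. The libraries were centred alike, with a median log2 ratio of -0.03 for unigenes counted 50 times or more in each.

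The families differ in what they bind. WRKY factors recognise W-box elements and are best known from defence and senescence, and bZIP factors bind elements with an ACGT core and act in abscisic acid, light and stress responses. bHLH factors bind E-box elements as dimers, trihelix factors bind GT elements of light-regulated promoters, TCP factors control cell division in leaves and meristems, and B3 factors form a large plant family to which VRN1 of vernalization belongs. No sequence of these unigenes was used here, so the names rest on protein matches in soybean, Medicago and Caragana that the study reports.

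In Se-treated callus 8 of the 9 unigenes were higher and 1, a WRKY factor, was lower. The values below are fragments, FPKM (fragments per kb of unigene and per M mapped fragments, a level that can be compared between genes) and log2 ratios, which divide the FPKM of Se-treated by that of control callus. Exact 95% intervals stand in brackets and cover counting error alone. The call rule was a false discovery rate no higher than 0.001, from a two-sided test of Audic and Claverie that sets the counts of a unigene in both libraries against each other, together with a log2 ratio of 1 or more in either direction. The test compares the libraries and not the conditions. By this rule 5.50% of all unigenes were called higher and 4.65% lower. With 2 as the smallest ratio, the threshold of the list of names, all 9 were called, against 1.59% of all unigenes on the higher side and 1.10% on the lower side. For all 9 the whole counting interval was past a 2-fold difference as well, which held for 3.23% of all unigenes on the higher side and 2.18% on the lower side. Since the list was made with this contrast, nothing is read from these shares.

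GT-3b-like (Unigene25857_All, 381 nt), named after a trihelix factor of Arabidopsis, had the highest level of the 9 in the Se-treated library. It had 570 fragments in the Se-treated and 85 in the control library, which is 89.6 FPKM (82.4 to 97.2) against 13.3 FPKM (10.7 to 16.5). Its log2 ratio was 2.75 (2.42 to 3.09), and the intervals of the levels did not overlap. In the Se-treated library 98.1% of all unigenes had a lower FPKM than GT-3b-like, against 87.3% in the control library.

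Both WRKY unigenes were well counted and went opposite ways. The WRKY factor matched to Medicago (Unigene16824_All, 1218 nt) was the only 1 of the 9 that was lower in Se-treated callus. It had 273 fragments in the Se-treated and 1336 in the control library, or 13.4 FPKM (11.9 to 15.1) against 65.6 FPKM (62.1 to 69.2), a log2 ratio of -2.29 (-2.48 to -2.10). It was the most abundant of the 9 in the control library and the fourth in the Se-treated library. WRKY32 (Unigene3268_All, 736 nt) had 181 fragments in the Se-treated and 40 in the control library, or 14.7 FPKM (12.7 to 17.0) against 3.25 FPKM (2.32 to 4.42). Its log2 ratio was 2.18 (1.68 to 2.71). The 2 levels were far apart in the control library, while in the Se-treated library the counting intervals of WRKY32 and of the Medicago-matched WRKY factor overlapped.

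bHLH130-like (Unigene6331_All, 1403 nt) is named after an Arabidopsis factor that activates the flowering gene CONSTANS. It had 419 fragments in the Se-treated and 94 in the control library, or 17.9 FPKM (16.2 to 19.7) against 4.00 FPKM (3.24 to 4.90), a log2 ratio of 2.16 (1.83 to 2.50). After GT-3b-like this was the highest level in the Se-treated library, though its interval overlapped that of WRKY32 there and in the control library. The other bHLH unigene, bHLH041-like (Unigene39854_All), was only 273 nt long and sparse. It had 22 fragments in the Se-treated and 3 in the control library, or 4.83 FPKM (3.02 to 7.31) against 0.657 FPKM (0.135 to 1.92). Its log2 ratio of 2.88 (1.14 to 5.26) was nominally larger than that of bHLH130-like, but its interval covers the whole interval of bHLH130-like.

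**Figure D1:**
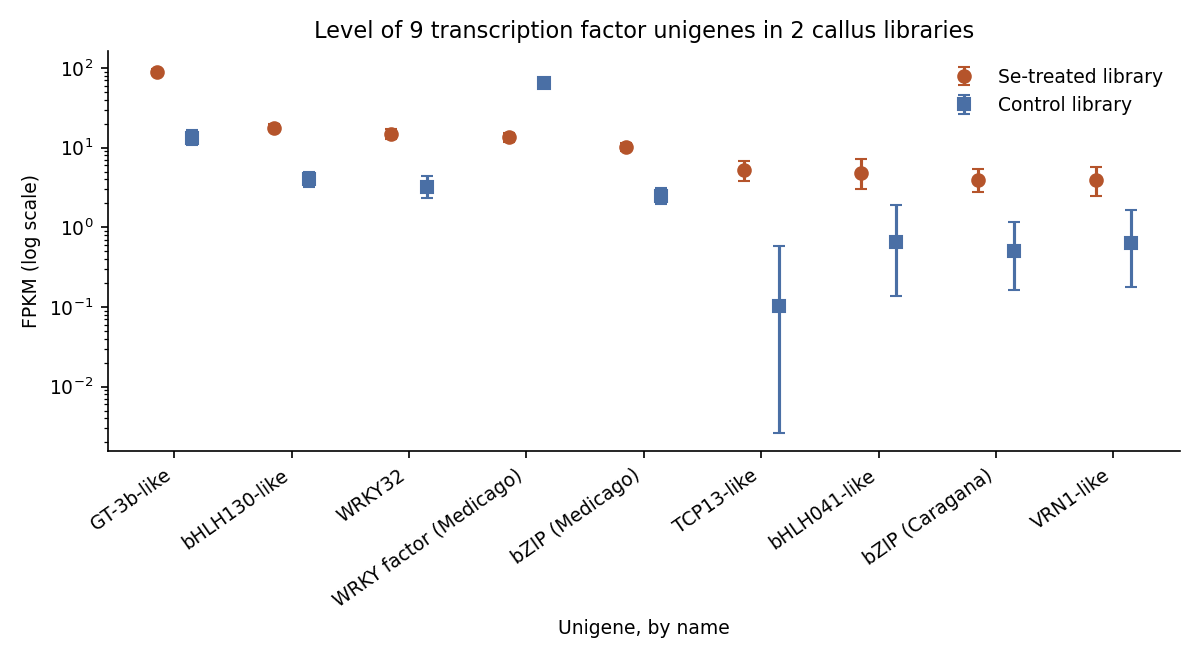
FPKM on a log axis for each of the 9 unigenes in the Se-treated library (left point) and the control library (right point), with exact 95% Poisson intervals. The WRKY factor matched to Medicago, at 13.4 FPKM in Se-treated and 65.6 FPKM in control callus, is the only pair in which the Se-treated point is lower, and the 4 sparsest unigenes have wide control intervals.

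The bZIP unigenes both lie in clusters of 2 contigs, that is, similar sequences that the assembly kept apart and that can share reads. The stated mapping settings report 1 hit for a read with several, so the split of reads between such contigs is uncertain. The bZIP factor matched to Medicago sativa (CL1682.Contig2_All, 1847 nt) had 318 fragments in the Se-treated and 76 in the control library, or 10.3 FPKM (9.21 to 11.5) against 2.46 FPKM (1.94 to 3.08). Its log2 ratio was 2.07 (1.70 to 2.45), the nearest of the 9 to the threshold of 2. For scale, the unigene just outside that threshold on the higher side, Unigene13164_All, had 998 and 250 fragments and a ratio of 1.9995, and on the lower side Unigene33421_All had 14 and 56 fragments and a ratio of -1.998.

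The partner contig of the Medicago-matched bZIP factor did not share its difference. CL1682.Contig1_All (1640 nt) had 48 fragments in the Se-treated and 65 in the control library, a log2 ratio of -0.43 (-1.004 to 0.13), and was not called. At about the same level in control callus (2.46 FPKM for the named contig, 2.37 FPKM for the partner), the contigs were at 10.3 and 1.75 FPKM in Se-treated callus. The named contig took 86.9% (83.0 to 90.2) of the cluster's fragments in the Se-treated and 53.9% (45.3 to 62.3) in the control library. These exact binomial intervals do not overlap. However, the named contig was chosen by its own difference and the partner was not, so the gap in shares is a description only. With both contigs summed, the cluster had 366 fragments in the Se-treated and 141 in the control library and a log2 ratio of 1.38 (1.09 to 1.67), which is below the threshold of 2.

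The other bZIP cluster was sparse, and its contigs went the same way. The contig matched to the legume shrub Caragana korshinskii (CL6680.Contig2_All, 594 nt) had 39 fragments in the Se-treated and 5 in the control library, or 3.93 FPKM (2.80 to 5.37) against 0.503 FPKM (0.163 to 1.17). Its log2 ratio was 2.97 (1.62 to 4.67). The partner CL6680.Contig1_All (550 nt) had 28 and 8 fragments and a log2 ratio of 1.81 (0.64 to 3.15), and missed the call. The named contig held 58.2% (45.5 to 70.2) of the cluster's fragments in the Se-treated and 38.5% (13.9 to 68.4) in the control library. The intervals overlap, so these shares could not be told apart at this depth. The cluster as a whole had 67 and 13 fragments and a summed log2 ratio of 2.37 (1.498 to 3.35).

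**Figure D2:**
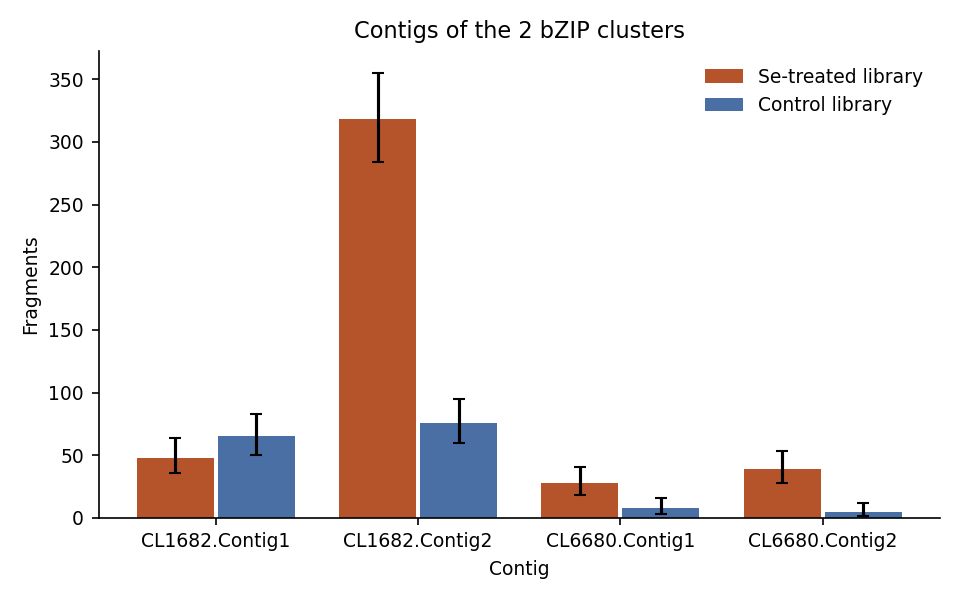
Fragments of each contig of the bZIP clusters CL1682 and CL6680 in the Se-treated library (left bar) and the control library (right bar), with exact 95% Poisson intervals. CL1682.Contig2 stands out with 318 against 76 fragments, while its partner has 48 against 65, and in CL6680 both contigs are higher in the Se-treated library.

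TCP13-like (Unigene41332_All, 577 nt) had the largest ratio and the fewest control fragments of the 9. In Arabidopsis TCP13 belongs to the TCP factors that restrain growth at the leaf margin. It had 50 fragments in the Se-treated and 1 in the control library, or 5.19 FPKM (3.85 to 6.84) against 0.104 FPKM (0.00262 to 0.577). The log2 ratio was 5.65 (3.10 to 10.98), so counting alone sets its size only within a wide range, with a lower end of 3.10.

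VRN1-like (Unigene41571_All, 371 nt) is named after a B3 factor that keeps the floral repressor FLC silent after cold in Arabidopsis. It had 24 fragments in the Se-treated and 4 in the control library, or 3.87 FPKM (2.48 to 5.76) against 0.644 FPKM (0.176 to 1.65). Its log2 ratio was 2.59 (1.05 to 4.57), whose lower end is just above a 2-fold difference. It was the lowest of the 9 in the Se-treated library, but the intervals of the 4 sparse unigenes, TCP13-like, bHLH041-like, the Caragana-matched bZIP factor and VRN1-like, overlapped from each to the next in that order. The same 4 took the last places in the control library, each under 1 FPKM, again with overlapping intervals.

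The size of the difference depends on how low values are treated, most for the sparse unigenes and least for GT-3b-like and the lower WRKY factor. With 1 FPKM added to both libraries, the log2 ratio of GT-3b-like was 2.66, of the lower WRKY factor -2.21, of bHLH130-like 1.92, of WRKY32 1.89 and of the Medicago-matched bZIP factor 1.71. TCP13-like then had 2.49, bHLH041-like 1.81, the Caragana-matched bZIP factor 1.71 and VRN1-like 1.57. Of the 9, only GT-3b-like, the lower WRKY factor and TCP13-like then stayed past a ratio of 2 in size. The order of the ratios thus changed, and GT-3b-like moved to the top. Another setting assumed a coefficient of variation of 0.2 between cultures and used a normal test of the log ratio instead of the Audic-Claverie test. It left 4 higher calls and the lower one, and ended those of the 4 unigenes with fewer than 10 control fragments. With 0.4 there were 0 calls among the 9 and 0 in the whole table. The test and the assumed spread changed together, so the part of each in the lost calls was not tested.

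**Figure D3:**
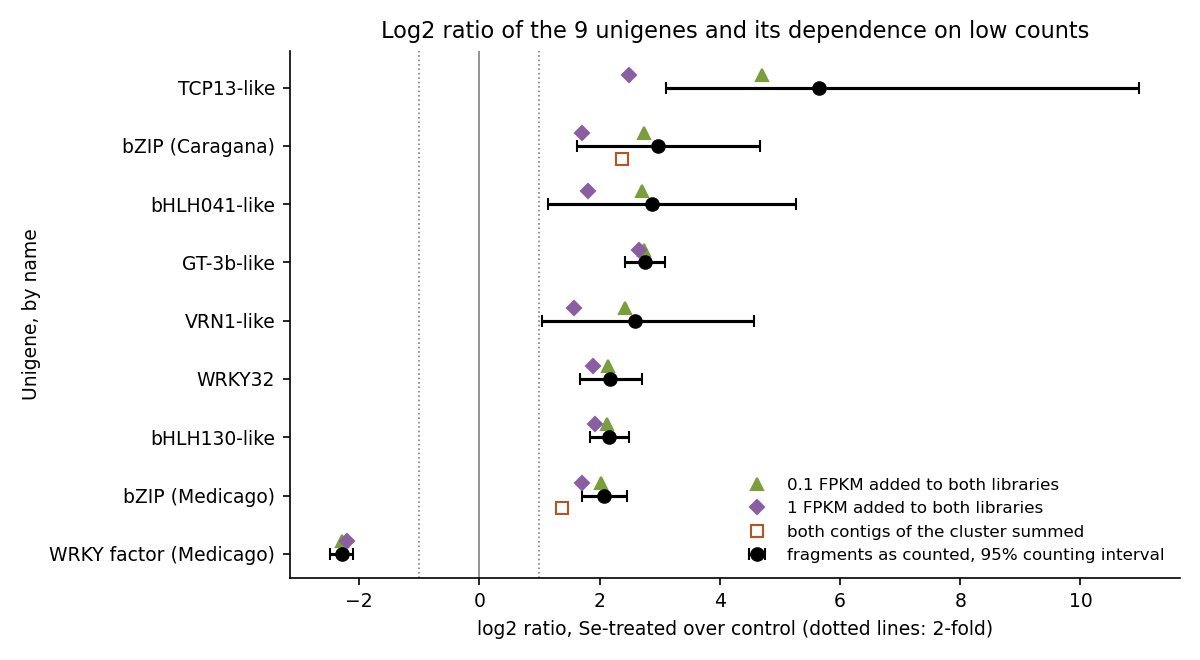
Log2 ratio (horizontal axis, FPKM in Se-treated divided by control callus) for the 9 unigenes, with the 95% counting interval (black), after 0.1 or 1 FPKM was added to both libraries (triangles and diamonds), and for both contigs of a cluster summed (open squares). TCP13-like moves to 2.49 with 1 FPKM added, against 5.65 without, GT-3b-like stays near 2.7, and the cluster of the Medicago-matched bZIP factor lies at 1.38.

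The fragments of the 9 unigenes summed to 1896 in the Se-treated and 1644 in the control library, a log2 ratio of 0.21 (0.11 to 0.30), and the lower WRKY factor alone gave 1336 of those in the control library. Per length, the sums were 164 FPKM in the Se-treated and 90.5 FPKM in the control library. The 8 higher ones summed to 1623 and 308 fragments, a ratio of 2.40 (2.22 to 2.58), and to 2.24 (2.03 to 2.46) without GT-3b-like. The median log2 ratio of the 9 was 2.59, a size set in part by the choice of unigenes past a ratio of 2. Over all unigenes the median was -0.09. The 9 were shorter than usual, with a median of 594 nt against 785 nt over all unigenes, and 6 of the 9 lay under the latter value.

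The assembly's numbering, which the choice of the 9 did not use, moved with the direction. Outside the clusters each unigene has a number, and 46.2% of the 29954 unigenes numbered below 30000 were higher in Se-treated callus, while 11.1% of the 6970 from 30000 to below 37000 and 89.7% of the 7446 from 38000 on were. GT-3b-like, bHLH130-like, WRKY32 and the lower WRKY factor are numbered below 30000. Within 250 numbers of GT-3b-like 41.6% of unigenes were higher, and 1.4% were called higher at a log2 ratio of 2, while near bHLH130-like these shares were 48.0% and 1.0% and near WRKY32 51.4% and 1.2%. Near the lower WRKY factor 0.6% were called lower at a ratio of -2. At a ratio of 2 in size, the shares called near these 4 unigenes lie below those of the whole table. At a ratio of 1 in size they lie above. There 8.2%, 7.2% and 7.4% were called higher near GT-3b-like, bHLH130-like and WRKY32, against 5.50% of the table. Near the lower WRKY factor 6.6% were called lower, against 4.65%.

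The sparse unigenes outside the clusters all carry numbers in the highest range. Within 250 numbers of TCP13-like 86.9% of unigenes were higher in Se-treated callus, and 20.5% were called higher at a log2 ratio of 2, against 1.59% of the whole table. The shares were 93.6% and 18.8% near bHLH041-like, and 95.6% and 16.0% near VRN1-like. The median log2 ratio of the neighbours was 1.49 near TCP13-like, 1.59 near bHLH041-like and 1.67 near VRN1-like. In the same order, the neighbours had a median length of 310.5, 280 and 295.5 nt, against 785 nt over all unigenes. Their median count over both libraries was 30, 23 and 25 fragments. For these 3 unigenes the share called among their neighbours, which are shorter than usual, is thus far above that of the table. The part of the numbering in their difference was not tested.

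**Figure D4:**
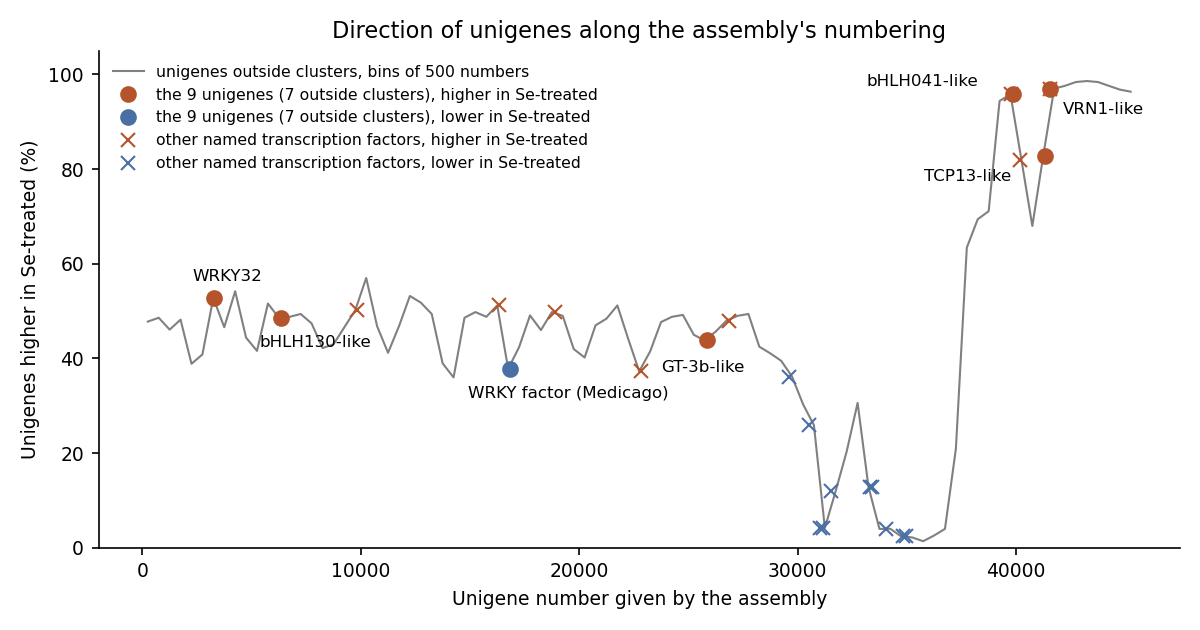
Share of unigenes higher in the Se-treated library (percent, vertical axis) in bins of 500 numbers of the assembly (horizontal axis), with the 7 unigenes outside clusters (dots) and other named transcription factors (crosses) placed at their number on that curve. TCP13-like, bHLH041-like and VRN1-like lie where most unigenes are higher in Se-treated callus, and the other 4 lie in the range where 46.2% of unigenes are higher.

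Further unigenes of the same families were named in the list, and all of them were lower in Se-treated callus, with auxin response factors, which also carry a B3 domain, not analysed here. They are given as context, since that list holds only unigenes that differed. There were 5, with 25 fragments in the Se-treated and 189 in the control library in all. A WRKY28-like unigene (Unigene30532_All) had 1 and 38 fragments and a ratio of -5.25 (-10.59 to -2.68). Another WRKY unigene (Unigene34988_All) had 0 and 21, which is 6.99-fold lower with a floor of 3 fragments for the Se-treated library. That floor leaves out the counting error of the control count, and the exact interval of its log2 ratio had its upper end at -2.38. Thus 1 of 4 named WRKY unigenes was higher and 3 were lower, and summed they had 455 and 1435 fragments, a ratio of -1.65 (-1.81 to -1.50). That sum rests on the WRKY factor matched to Medicago, without which the other 3 summed to 182 and 99 fragments, a ratio of 0.88 (0.52 to 1.25). The latter sum rests on WRKY32, which alone gave 181 and 40 of those fragments, while both others were lower.

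The bHLH and trihelix families were split in the same manner. A partial bHLH unigene (Unigene31535_All) had 7 and 46 fragments in the Se-treated and control libraries (-2.71, -4.11 to -1.56), and a further one (Unigene29622_All) had 8 and 36 (-2.17, -3.48 to -1.04), so 2 of 4 were higher. GTL2-like (Unigene33317_All), named after a trihelix factor, had 9 and 48 fragments (-2.41, -3.63 to -1.37), so 1 of 2 trihelix unigenes was higher. No further TCP or bZIP unigene was named. Of these 5 unigenes, 4 are numbered from 30000 to below 37000 and Unigene29622_All just below, and near it 36.3% of unigenes were higher in Se-treated callus. None of the 5 reached 1 FPKM in the Se-treated library, and in the control library they were at 1.83 to 4.63 FPKM.

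**Figure D5:**
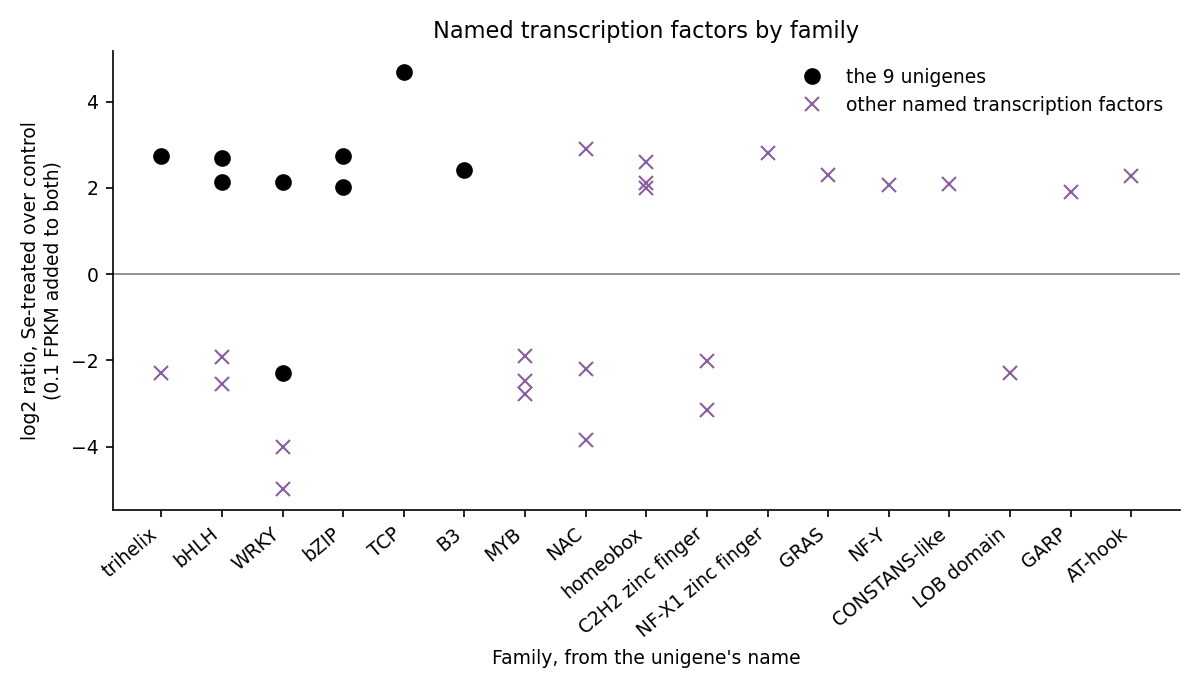
Log2 ratio of Se-treated over control after 0.1 FPKM was added to both libraries, for 32 of the transcription factors named in the list, by family, without heat stress, auxin response, ethylene response and class III HD-Zip factors. Dots are the 9 unigenes and crosses the other named ones. WRKY, bHLH and trihelix unigenes lie on both sides of 0, and both bZIP unigenes lie above it.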

How the data were processed

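RNA of 1 Se-treated and 1 control callus library was analysed. The authors filtered the reads, assembled them with Trinity (release 20130225), TGICL (2.1) and Phrap (23.0), and mapped them to the unigenes with SOAP (2.21). The deposited table holds whole fragment counts per unigene, not normalized, with unigene lengths. Deposited FPKM values of 1 or more lack their decimal mark and equal 10000 times the FPKM computed from the counts (within 0.6), so FPKM was computed from the counts. Deposited P-values, FDR and direction of the authors' comparison were not used.

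The ratio is log2 of Se-treated over control FPKM, with 0.001 in place of 0. The Audic-Claverie test was chosen as in earlier work on these data, since the paper names no test, and was adjusted by Benjamini-Hochberg over all 82566 unigenes. It was also run on simulated counts with Poisson spread alone. Those counts hold no variation between cultures, so the run cannot tell how far the calls would hold in further cultures. Intervals are exact binomial for ratios and shares, and Poisson for levels. Fragments are not independent molecules, so intervals, like the floor of 3 fragments used for a count of 0, reflect counting error alone. The 9 unigenes, the list of 32 factors and the number ranges were chosen with earlier results of these data known. Heat stress, auxin response, ethylene response and class III HD-Zip factors, CCCH zinc fingers and a homeodomain-related unigene of that list were left out of the 32. Names came from a supplementary list of 972 unigenes. All 9 are described. Of the others, those of the same families are named, and of each other family the one with the most fragments. Alternatives were pseudocounts, recentring, TMM scaling by edgeR (4.0.16), a filter, an exact binomial test, assumed spreads, a higher threshold, summed clusters, 99% intervals and wider windows. Python 3.11.15 with scipy 1.17.1 was used.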

Additional observations from a re-analysis of the deposited data

How the results depend on the processing

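The 8 higher calls and the lower call among the 9 unigenes were unchanged with 0.1 or 1 FPKM added, recentring (a log2 shift of -0.03), TMM scaling (-0.08), only unigenes with at least 10 fragments tested, the exact binomial test, a threshold of 2 and summed clusters. The result at a threshold of 2 was fixed in advance, since the 9 came from a list made with it on this contrast. Adding FPKM changed the ratios but not the false discovery rates, and all 9 pass the filter on fragments. At 99% the intervals of 6 higher unigenes and of the lower one lay beyond 2-fold, while those of bHLH041-like and VRN1-like reached it. The settings with an assumed coefficient of variation also replaced the Audic-Claverie test with a normal test of the log ratio. A coefficient of 0.2 left 4 higher calls among the 9, and 405 higher and 183 lower calls in the whole table, against 4539 and 3838. With 0.4 there were 0 higher and 0 lower calls among the 9 and 0 in the table in either direction. At a log2 ratio of 2 the table had 1311 higher and 912 lower calls. No direction reversed. Windows of 1000 numbers gave 84.7% to 87.5% higher near the 3 unigenes of the highest range and 45.4% to 48.7% near the other 4. No paired analysis was possible because each condition has 1 library, and no library could be left out. The depth limits the 4 unigenes with fewer than 10 control fragments, whose levels in control callus are known only within wide intervals.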

Other observations

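Other families of transcription factors with a name in the same list, which holds only unigenes that differed at least 4-fold, were mixed in direction. Heat stress, auxin response, ethylene response and class III HD-Zip factors, CCCH zinc fingers and a homeodomain-related unigene were not analysed here. For scale, the whole table had 1311 higher and 912 lower calls at 4-fold. Of the 18 unigenes analysed, 10 had more and 8 had fewer fragments per length in Se-treated callus, and nothing about their families is read from this split. The 3 homeobox unigenes among them were higher, led by ROC7 (Unigene26848_All), named after a factor of the epidermis, with 649 fragments in the Se-treated and 103 in the control library and a log2 ratio of 2.66 (2.36 to 2.97). NFXL1-like (Unigene22830_All) had 278 and 39 fragments (2.84, 2.35 to 3.36), and CONSTANS-LIKE a (Unigene18901_All) 133 and 31 (2.104, 1.53 to 2.72). SCL5-like of the GRAS family (Unigene9841_All) had 84 and 16 fragments (2.39), GLK1-like of the GARP family (Unigene16348_All) 74 and 18 (2.04) and the AT-hook unigene ESCAROLA-like (Unigene39785_All) 63 and 12 (2.39).

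All 3 MYB unigenes were lower, led by MYB112 (CL751.Contig2_All) with 12 fragments in the Se-treated and 77 in the control library (-2.68, -3.69 to -1.79), and so were both MAGPIE-like zinc fingers, of which Unigene33389_All had 8 and 35 (-2.13). Of 3 NAC unigenes, NAC68-like (Unigene40173_All) was higher with 87 and 10 fragments (3.12), and the other 2 were lower. NF-YA7 (CL130.Contig12_All) had 95 and 22 fragments (2.11), while its cluster of 13 contigs had 1001 and 780 (0.36). LBD41-like (CL3308.Contig1_All) had 12 and 62 (-2.37), while its cluster of 2 contigs had 3249 and 3881 (-0.25).

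The direction of these factors, too, moved with the assembly's numbering from 30000 on. Of the 23 named factors beyond the 9 unigenes, the 3 numbered from 38000 on (NAC68-like, ESCAROLA-like and a BEL1 homolog) were all higher in Se-treated callus. The 9 from 30000 to below 37000 were all lower. Of the 6 below 30000, 5 were higher and 1 was lower, and of the 5 in clusters 2 were higher and 3 lower. Among all unigenes from 38000 on, 6.73% were called higher at a log2 ratio of 2, and 0.04% were called lower at -2. From 30000 to below 37000 these shares were 0.17% and 5.75%. Within 250 numbers, 85.3% of unigenes were higher near NAC68-like, 95.2% near ESCAROLA-like and 95.6% near the BEL1 homolog, against 7.0% and 4.4% near the MAGPIE-like unigenes. The part of the numbering in these differences was not tested.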
